A study of Mus musculus with 8 samples.

Results

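The genes described here build the junctions that join cells of the skin: desmosomes, tight junctions, adherens junctions and gap junctions. They were chosen as a named list of 36 genes, each read at the probe set of highest mean among those annotated to that gene alone. Of these, 35 had such a probe set, out of 18193 genes on the array with one, and Dsg3 was not analysed here. RNA was taken from the dorsal skin of B6D2/F1 mouse embryos on embryonic day 18.5. The 4 GR-null arrays, numbered 5, 17, 25 and 26 in the labels, came from GR-/- embryos, which lack the glucocorticoid receptor encoded by Nr3c1. The 4 wild-type arrays, numbered 4, 6, 28 and 29, came from GR+/+ littermates, and the question was which skin genes depend on the receptor before birth. The labels do not describe the mutant allele, the litters, or whether each array is a separate embryo, so p-values measure the spread between these samples. All levels are log2 RMA values of Affymetrix Mouse Genome 430 2.0 arrays, and a difference is GR-null minus wild-type unless said otherwise.

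Desmosomes are plaques that anchor the keratin filaments of neighbouring cells to each other, through cadherins outside the cell and plaque proteins inside. Tight junctions seal the space between cells of the granular layer, and their claudins set what can pass, while adherens junctions couple the actin networks of neighbours. Gap junctions are channels of connexins that let small molecules pass between cells. Mice without Cldn1 lose water through the skin and die soon after birth, so this group of genes bears on the barrier that forms in late gestation. Whole skin was measured, so fewer cells of a type and less RNA per cell cannot be told apart.

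Nr3c1 was lower in every GR-null array at 3 of its 6 probe sets, with differences of -0.84, -1.86 and -2.70 log2, and at the others the differences were 0.27, 0.04 and 0.35. Array medians lay between 6.48 and 6.52 in GR-null and between 6.46 and 6.51 in wild-type skin. In 1 array of each genotype, GR-null 17 and wild-type 6, Xist read 12.61 and 13.22, against 5.92 to 6.38 in the others. Eif2s3y, used below as a covariate, read 3.31 and 3.43 in those 2 arrays, against 8.83 to 9.51 in the others. The 5′ and 3′ control probe sets of Gapdh and Actb, which are read at opposite ends of one transcript, also separated the groups. The 5′ minus 3′ difference of Gapdh was 0.10, -0.07, 0.14 and 0.16 log2 in GR-null 5, 17, 25 and 26, against -0.31, -0.20, -0.54 and -0.55 in wild-type 4, 6, 28 and 29. For Actb it was -0.64, -0.88, -0.54 and -0.52 in GR-null arrays, against -1.28, -0.91, -1.48 and -1.39 in wild-type arrays. The 5′ signal relative to the 3′ signal was thus higher in GR-null RNA for both controls, without overlap, and GR-null 17 and wild-type 6 lay nearest to each other.

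Of the 35 junction genes 1 passed the test, close to the share of all genes, and the direction differed by junction type. The claudin Cldn10 rose, and the other 34 members were not past an adjusted p of 0.05 (limma, Benjamini-Hochberg over all genes). Over all genes 2.96% passed, 1.40% higher and 1.56% lower. At an unadjusted p under 0.05, limma gave 10 members higher and 3 lower, which is 28.6% and 8.57% of 35, against 10.5% and 11.1% of all genes. The higher ones were Dsc3, Cldn1, Cldn8, Cldn10, Cldn23, Ocln, Marveld3, F11r, Tjp1 and Ctnna1, and the lower ones Pkp1, Gjb2 and Gjb6. All 4 GR-null values lay above all 4 wild-type values in 7 members (20%, against 6.69% of all genes) and below them in 3 (8.57%, against 6.30%). The median difference was 0.12 log2 over the members and -0.0045 over all genes. Of the 10 higher members, 8 belong to tight junctions, and of the 3 lower ones 2 are connexins.

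**Figure D1:**
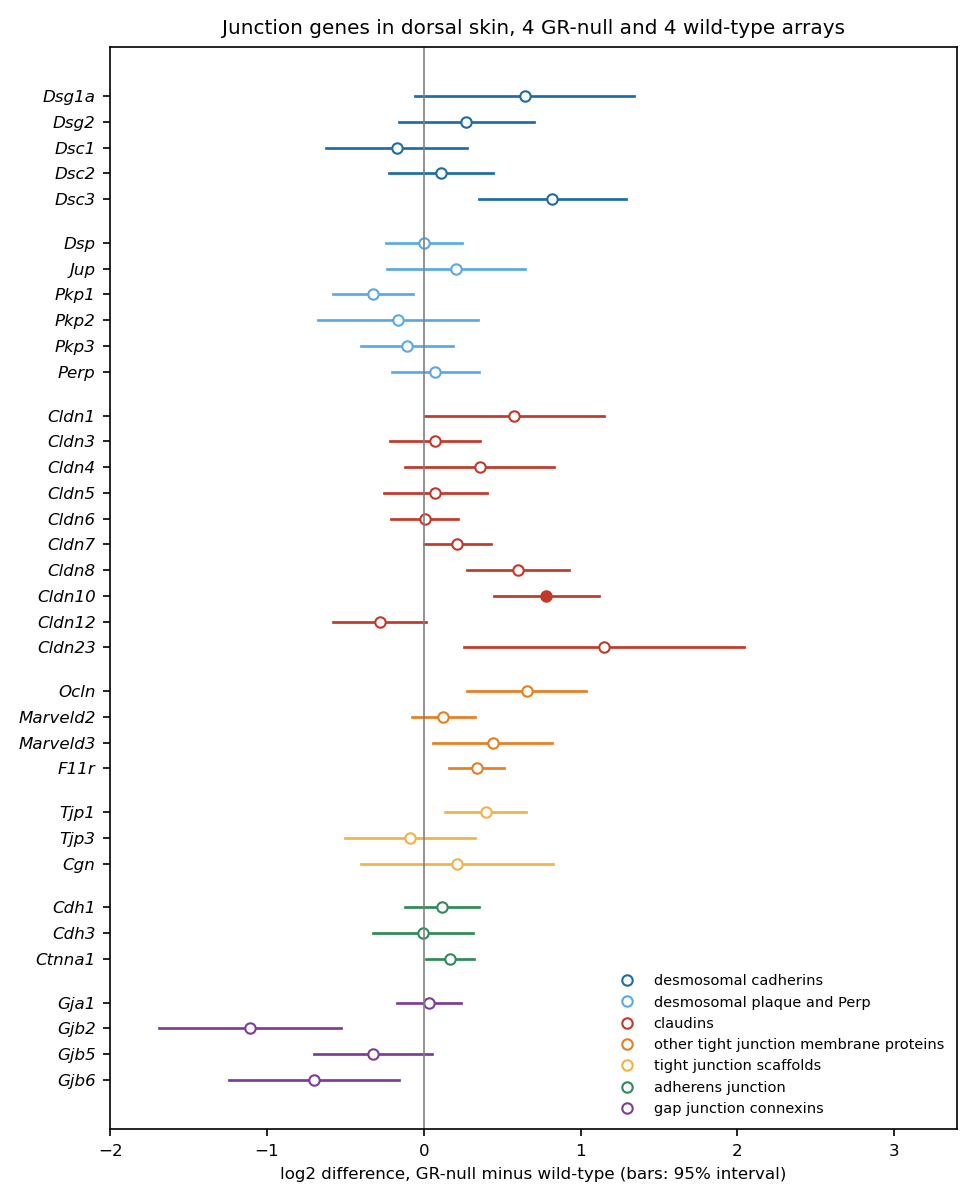
Differences in log2 value, GR-null minus wild-type, of the 35 junction genes, in 7 groups by junction type; points are the limma estimates, bars their 95% intervals, and the filled point marks an adjusted p under 0.05. Cldn10 is the filled point at 0.78, Cldn23 lies farthest right at 1.15 with a wide interval, and Gjb2 lies farthest left at -1.11.

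GR-null 17 stood apart from the other GR-null arrays in many of these genes. Among the 10 members higher at an unadjusted p, it held the lowest GR-null value in 6. Counting all 35 members, 10 of its values lay above the wild-type range, against 13, 17 and 16 for GR-null 5, 25 and 26. Without GR-null 17, limma called 8 members higher (Dsg1a, Dsc3, Cldn8, Cldn10, Cldn23, Ocln, F11r and Tjp1) and 3 lower (Pkp2, Cldn12 and Gjb2), where 3.80% of all genes were called higher and 5.21% lower. Leaving out both arrays with high Xist gave 9 called members, with 1715 of all genes called, against 539 over all 8 arrays. No member was called without GR-null 5, 25 or 26 or wild-type 4, 28 or 29, each left out in turn. Those fits called 79 to 295 of all genes. Cldn10 remained the called member without wild-type 6.

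**Figure D2:**
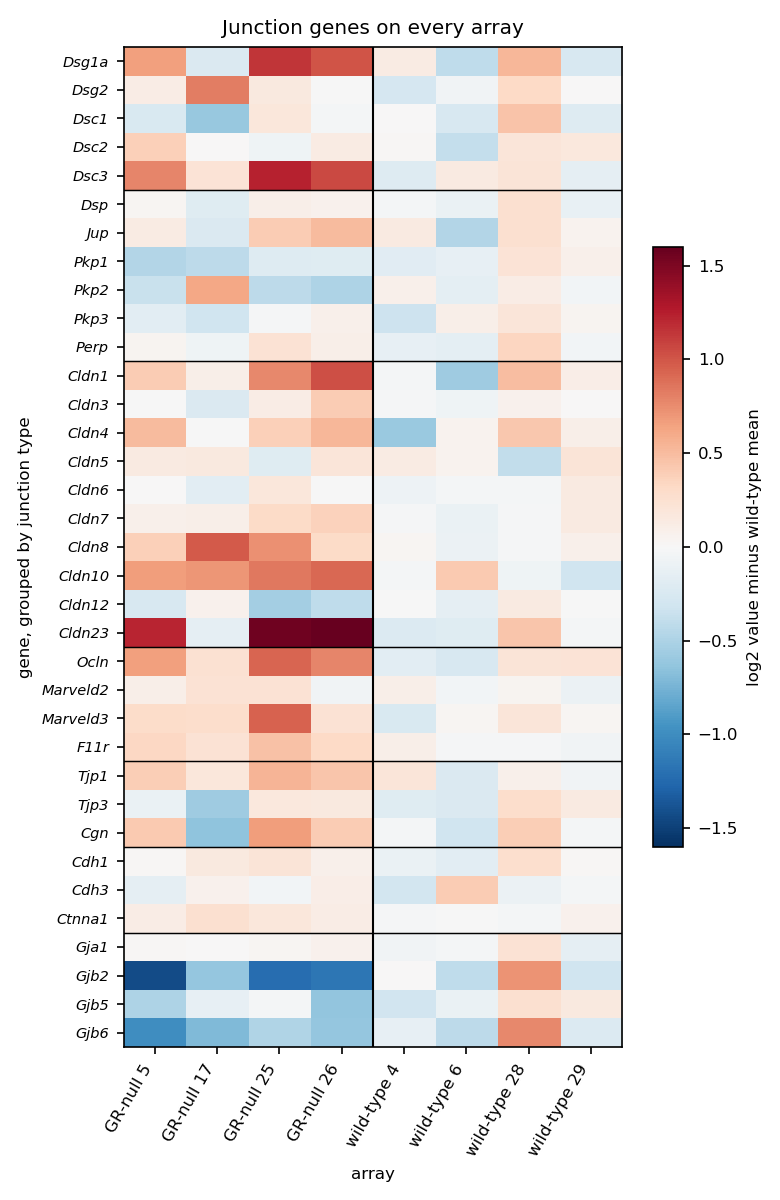
Log2 value minus the wild-type mean for the 35 junction genes (rows, in blocks by junction type) on each array (columns), red for higher and blue for lower. GR-null 17 is blue or pale where GR-null 5, 25 and 26 are red in Dsg1a, Cldn23 and Cgn, while Gjb2 and Gjb6 are blue on all 4 GR-null arrays.

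Of the desmosomal cadherins, Dsc3, a desmocollin of basal and lower suprabasal cells, differed most. Dsc3 read 11.75, 11.18, 12.19 and 12.02 log2 in GR-null 5, 17, 25 and 26, against 10.76, 11.11, 11.17 and 10.82 in wild-type 4, 6, 28 and 29. GR-null 17 lay just above the highest wild-type array, and the other GR-null values were well above it. The difference was 0.82 ± 0.21 log2 (SE, n = 4 per group, limma adjusted p = 0.0675), and without GR-null 17 it was 1.02 ± 0.14 (adjusted p = 0.00732). With the 5′ minus 3′ difference of Gapdh as a covariate it was 0.28, with that of Actb 0.26.

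Dsg1a, a desmoglein of the suprabasal layers and one of several near-identical mouse Dsg1 genes whose probes may share signal, split along the same line. It read 11.67, 10.79, 12.16 and 12.02 in GR-null arrays, against 11.15, 10.61, 11.55 and 10.76 in wild-type arrays, with the low GR-null value again in GR-null 17. The difference was 0.64 ± 0.31 (adjusted p = 0.267), or 0.93 ± 0.23 without GR-null 17 (adjusted p = 0.0407). Dsc1, the desmocollin of the upper layers, had 12.32, 11.96, 12.74 and 12.53 in GR-null skin, against 12.56, 12.30, 13.02 and 12.36 in wild-type skin. Those groups overlapped, with a difference of -0.17 (95% interval -0.62 to 0.28). The dimmer Dsc1 probe set went the other way, with a difference of 1.22. There the groups overlapped too, and GR-null 17 was the lowest array (7.85). Dsc2, a desmocollin common in simple epithelia, read 6.49, 6.11, 6.04 and 6.24, against 6.12, 5.74, 6.30 and 6.29 in wild-type skin (adjusted p = 0.734). Dsg2, its desmoglein counterpart, read 8.80, 9.49, 8.83 and 8.66 at its brightest probe set, against 8.41, 8.62, 8.997 and 8.68 in wild-type skin (adjusted p = 0.466). GR-null 17 was the highest array, and the others overlapped.

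The plaque showed smaller differences. Desmoplakin (Dsp), which ties the plaque to keratin, read 13.67, 13.45, 13.73 and 13.70 in GR-null arrays, against 13.61, 13.54, 13.89 and 13.52 in wild-type arrays. The estimate was 0.00 with a 95% interval of -0.24 to 0.24. Plakophilin 1 (Pkp1), an armadillo protein of the suprabasal plaque, read 12.73, 12.78, 12.99 and 13.00 in GR-null skin, against 13.02, 13.07, 13.42 and 13.28 in wild-type skin. All GR-null values lay below all wild-type values by a small margin, and the difference was -0.32 ± 0.11 (SE, n = 4 per group, limma adjusted p = 0.144). The closely related Pkp2, found mainly outside the epidermis, was dim and read 4.54, 5.51, 4.48 and 4.41 in GR-null arrays, against 4.98, 4.75, 5.01 and 4.85 in wild-type arrays. GR-null 17 was the highest of all 8 and the other GR-null arrays the lowest, so the difference was -0.16 ± 0.23 over 8 arrays, against -0.42 ± 0.09 once GR-null 17 was left out (adjusted p = 0.0288). It turned to 0.57 with the muscle covariate and 0.61 with Gapdh. The other Pkp2 probe sets gave 0.03, -0.06 and -0.10, all with overlap, and at the first of these GR-null 17 was the lowest array (4.52). Pkp3, plakoglobin (Jup) and the desmosomal membrane protein Perp had differences of -0.11, 0.21 and 0.07, with adjusted p between 0.61 and 0.803 among these 3.

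Of the 11 measured desmosomal members, 1 was higher and 1 lower at an unadjusted p under 0.05. That is 9.09% each, against 10.5% and 11.1% of all genes. Limma called 0 of the 11 at the adjusted threshold, where 2.96% of all genes passed. The median difference of the 11 was 0.07. The 5 measured desmosomal cadherins and Ctnna1 lie on chromosome 18, which also carries Nr3c1, and Dsc3 is the direct neighbour of Cdh2 in the RefSeq gene order.

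Tight junction genes leaned upward. Of 17 measured members, 15 had a positive difference, with a median of 0.34 log2. At an unadjusted p under 0.05, 8 were higher (47.1%, against 10.5% of all genes) and 0 were lower (against 11.1%). Cldn10, a claudin that forms ion-selective pores in kidney and glands, read 8.62, 8.65, 8.79 and 8.87 in GR-null 5, 17, 25 and 26, against 7.93, 8.37, 7.88 and 7.63 in wild-type 4, 6, 28 and 29. Every GR-null array was above every wild-type array, GR-null 17 included. Cldn10 rose by 0.78 log2 with an SE of 0.15, or 1.72-fold (limma adjusted p = 0.0315, n = 4 per group). Its adjusted p was 0.0667 to 0.107 in the 6 fits that each left out GR-null 5, 25 or 26 or wild-type 4, 28 or 29. With the Gapdh 5′ minus 3′ difference as a covariate the estimate was 0.13 (adjusted p = 0.943), with Actb in its place 0.21 (adjusted p = 0.795). Its probe set name ends in _s_at, so related transcripts may add to it.

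Cldn8, a claudin of tight kidney and gut epithelia that is also made in the epidermis, read 6.31, 6.90, 6.66 and 6.23 in GR-null arrays, against 5.95, 5.83, 5.90 and 5.997 in wild-type arrays. The wild-type values were close together and all lay below the GR-null values, with GR-null 17 the highest. The difference was 0.60 ± 0.14 (SE, n = 4 per group, adjusted p = 0.0592). Cldn23, a claudin of differentiated epithelia, gave the largest difference of any member, 1.15 ± 0.40 (2.22-fold, adjusted p = 0.14). It read 8.94, 7.57, 9.28 and 9.67 in GR-null skin, against 7.50, 7.52, 8.16 and 7.68 in wild-type skin. GR-null 17 lay within the wild-type range, and without it the difference was 1.58 ± 0.21 (limma adjusted p = 0.00663). With a covariate in the fit of all arrays, the difference was -0.0018 (skeletal muscle markers), 0.46 (Gapdh) or 0.47 (Actb).

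Cldn1, the claudin essential for the mouse skin barrier, read 10.10, 9.80, 10.48 and 10.74 in GR-null arrays, against 9.68, 9.13, 10.20 and 9.80 in wild-type arrays. The groups overlapped and the difference was 0.58 ± 0.25 (95% interval 0.01 to 1.15, limma adjusted p = 0.228). Cldn4, a further epidermal claudin, had a difference of 0.36 (95% interval -0.12 to 0.83), and its neighbour in the genome Cldn3 had one of 0.07 (-0.21 to 0.36). Cldn6, a claudin of embryonic epithelia, read 5.39, 5.21, 5.56 and 5.38 in GR-null skin, against 5.30, 5.34, 5.35 and 5.53 in wild-type skin, which overlap. Cldn7, a claudin of many epithelia, had a difference of 0.21 (adjusted p = 0.232). Cldn12, a widely expressed claudin, had one of -0.28 (adjusted p = 0.256), and -0.40 without GR-null 17 (adjusted p = 0.0474). Cldn5, the claudin of blood vessel endothelium, had a difference of 0.07 (95% interval -0.25 to 0.40). In the endothelial marker list, 7 of 8 genes had a negative difference and 1, Vwf, fell. At an unadjusted p under 0.05 in limma, 4 of the 8 were lower (50%, against 11.1% of all genes).

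Among the other membrane proteins of the tight junction, occludin (Ocln) was higher at both of its probe sets without overlap. At the brighter it read 7.57, 7.16, 7.85 and 7.70 in GR-null arrays, against 6.75, 6.66, 7.12 and 7.14 in wild-type arrays, and at the other 7.18, 6.56, 7.57 and 7.47 against 6.22, 6.43, 6.47 and 6.22. GR-null 17 was nearest to wild-type at both. The difference was 0.66 ± 0.17 (SE, n = 4 per group, limma adjusted p = 0.0686) at the brighter one. F11r, the junctional adhesion molecule JAM-A, varied little within either group and read 10.40, 10.31, 10.54 and 10.40 in GR-null arrays, against 10.17, 10.05, 10.05 and 10.02 in wild-type arrays. Its difference of 0.34 ± 0.08 just missed the threshold (adjusted p = 0.0535). It was 0.19 with the Gapdh covariate, and its other probe set gave 0.01. Marveld3, a relative of occludin, read 6.86, 6.85, 7.52 and 6.79, against 6.32, 6.59, 6.76 and 6.59 in wild-type skin. The groups did not overlap, GR-null 25 stood above the other GR-null arrays, and the difference was 0.44 ± 0.17 (adjusted p = 0.175). Without GR-null 25 it was 0.27, and the mean of its probe sets gave 0.20. Marveld2 (tricellulin), which seals the points where 3 cells meet, read 6.47, 6.62, 6.62 and 6.33, against 6.47, 6.34, 6.43 and 6.29 in wild-type skin, a difference of 0.13 (95% interval -0.08 to 0.33).

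Of the scaffolds, Tjp1 (ZO-1), which links claudins and occludin to actin, read 11.22, 11.004, 11.37 and 11.26 in GR-null arrays, against 11.014, 10.59, 10.90 and 10.77 in wild-type arrays. Only GR-null 17 and wild-type 4 overlapped, and the difference was 0.39 ± 0.11 (SE, n = 4 per group, limma adjusted p = 0.0923). Tjp3 (ZO-3), found mostly in simple epithelia, read 7.73, 7.26, 7.99 and 7.99, against 7.64, 7.60, 8.11 and 7.98 in wild-type skin, with overlap. Cingulin (Cgn), which joins ZO-1 to myosin, had a difference of 0.21 with a wide 95% interval of -0.40 to 0.82, since GR-null 17 was the lowest of the 8 arrays.

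**Figure D3:**
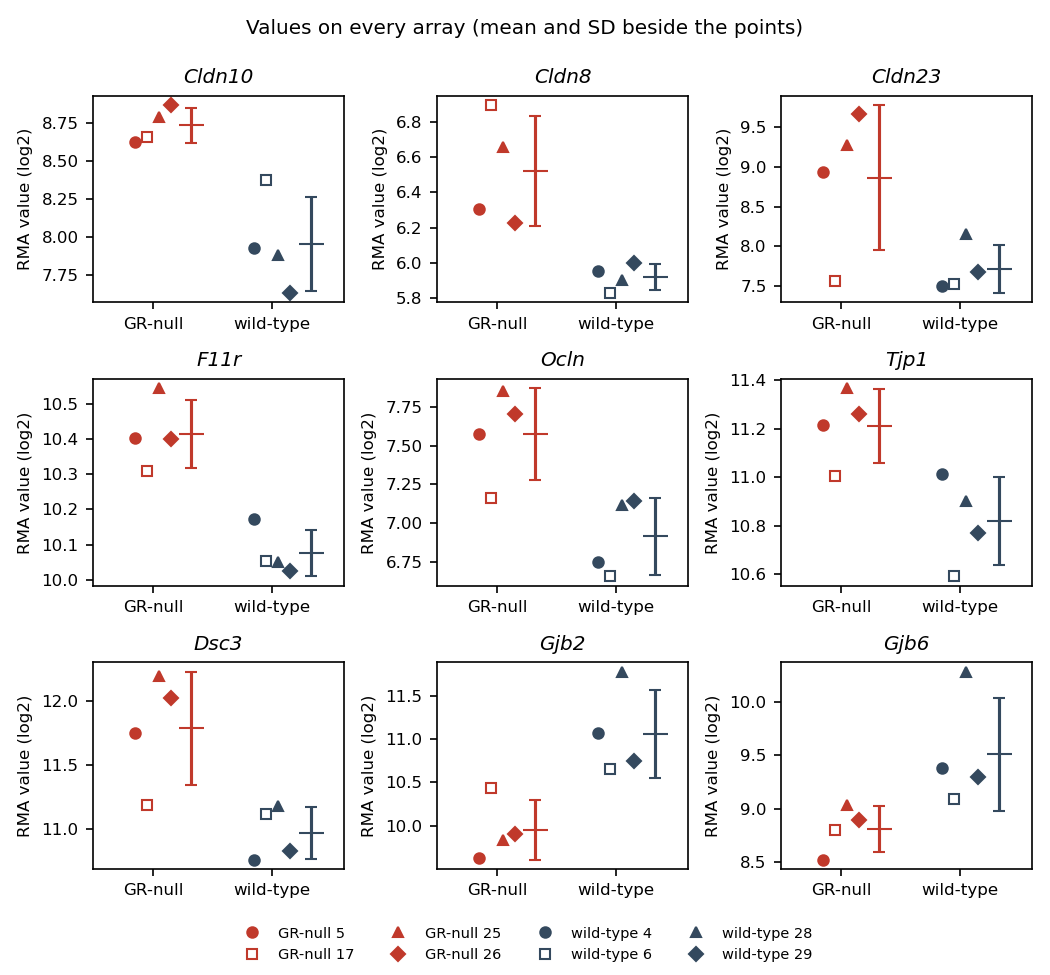
Log2 RMA values of 9 junction genes on every array, GR-null left and wild-type right, with the mean and SD (n = 4) beside the points; open squares are GR-null 17 and wild-type 6, the arrays with high Xist. Cldn10, Cldn8, F11r, Ocln and Dsc3 lie higher in GR-null skin without overlap, Gjb2 and Gjb6 lie lower without overlap, and in Cldn23 and Tjp1 GR-null 17 falls into the wild-type range.

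Several markers of skin cells moved beside these values. The mean of 8 basal keratinocyte markers, of which Trp63 and Col17a1 rose, spanned 10.88 to 11.17 in GR-null and 10.55 to 10.94 in wild-type arrays. In that list 6 differences were positive, and those of Krt5 (-0.14) and Krt14 (-0.20) were negative. The mean of 9 suprabasal markers, of which Lor and Flg fell, spanned 12.04 to 12.57 in GR-null and 12.60 to 13.03 in wild-type arrays. Of these 9, 7 differences were negative, and Krtdap and Tgm1 had 0.15 each. The mean of 14 skeletal muscle markers, of which Actn2 and Myh3 fell, spanned 11.43 to 12.04 in GR-null and 12.12 to 12.28 in wild-type arrays. Of 8 periderm and simple epithelium markers 0 passed in limma, with 1 higher and 1 lower at an unadjusted p under 0.05. That is 12.5% each, against 10.5% and 11.1% of all genes. The mean of these 8 spanned 6.87 to 9.13 in GR-null and 7.12 to 8.55 in wild-type arrays. These log2 values do not fall to 0 for dim probe sets, so they do not show that every marker was detected. With the muscle or the basal list as a covariate limma called 0 members, while the Cldn10 estimate was 0.78 with muscle and 0.79 with basal, against 0.78 without either (adjusted p = 0.491 and 0.133 in those fits). The estimates of other members moved more with muscle, to -0.0018 for Cldn23, 0.38 for Dsc3, 0.37 for Ocln, 0.15 for Tjp1, 1.08 for Cldn8 and -0.61 for Gjb2. The groups do not overlap in the muscle list, so its part in these differences cannot be told apart from genotype.

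Promoter sequence was looked at for the members that differed at an unadjusted p, because a receptor that binds DNA was removed. Of these 13 genes, 7 were searched in a window of 250 bases before to 50 after a start in RefSeq (GRCm38.p6), giving 9 windows. Searched on both strands were AGAACA, the 6-base arm of the glucocorticoid receptor site, that arm followed by any 3 bases and TGTTCT, the AP-1 site TGANTCA and the GC box GGGCGG, of which only the arm is part of another, the full site. Of all 32851 windows in that table, 19.0%, 0.00913%, 7.81% and 35.7% hold them. None of the 9 windows holds the receptor arm or the full site, which says only that these letters are not in the windows. The windows of F11r and of both starts of Cldn10 are shown for the tight junction, as the gene that rose and the one that came closest to the threshold, 5′ to 3′ on the gene's strand with AP-1 sites and GC boxes in capitals. Cldn10 lies on the plus strand at chr14:118787621-118787920 and chr14:118854700-118854999, and F11r on the plus strand at chr1:171437311-171437610.
Cldn10 upstream start: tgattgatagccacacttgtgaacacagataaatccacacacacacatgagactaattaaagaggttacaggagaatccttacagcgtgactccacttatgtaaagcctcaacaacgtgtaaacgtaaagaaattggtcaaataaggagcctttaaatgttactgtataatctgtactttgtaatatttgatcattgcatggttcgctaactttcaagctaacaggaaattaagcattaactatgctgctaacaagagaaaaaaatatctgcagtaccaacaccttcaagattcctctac
Cldn10 downstream start: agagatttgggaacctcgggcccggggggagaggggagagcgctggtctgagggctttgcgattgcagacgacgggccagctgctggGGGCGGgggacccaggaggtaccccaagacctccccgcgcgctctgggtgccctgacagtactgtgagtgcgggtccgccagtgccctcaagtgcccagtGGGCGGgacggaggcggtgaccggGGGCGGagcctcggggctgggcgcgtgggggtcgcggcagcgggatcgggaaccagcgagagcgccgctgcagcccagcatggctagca
F11r: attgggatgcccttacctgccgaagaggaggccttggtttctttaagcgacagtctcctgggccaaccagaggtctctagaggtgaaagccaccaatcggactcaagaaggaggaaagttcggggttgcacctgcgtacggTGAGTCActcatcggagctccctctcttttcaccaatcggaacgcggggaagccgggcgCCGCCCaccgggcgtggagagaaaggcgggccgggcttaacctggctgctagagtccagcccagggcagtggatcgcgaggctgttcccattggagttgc
The upstream Cldn10 window holds none of the motifs and has 36% G and C, the downstream one holds 3 GC boxes and has 72%, and the F11r window holds 1 AP-1 site and 1 GC box. Which Cldn10 start the probe set reads was not determined.

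The 4 gap junction members leaned the other way, 3 of them with a negative difference. Gjb2 (connexin 26), a connexin of keratinocytes and the inner ear, read 9.63, 10.44, 9.84 and 9.91 log2 in GR-null 5, 17, 25 and 26, against 11.07, 10.66, 11.78 and 10.75 in wild-type 4, 6, 28 and 29. All GR-null arrays lay below all wild-type arrays, with GR-null 17 nearest to them. The difference was -1.11 ± 0.26 (SE, n = 4 per group, 2.16-fold lower, limma adjusted p = 0.0547), and without GR-null 17 it was -1.27 ± 0.25 (adjusted p = 0.0214). It was -0.61 with the muscle covariate and -0.21 with either the Gapdh (adjusted p = 0.96) or the Actb covariate. Gjb6 (connexin 30), which pairs with connexin 26 in channels, read 8.52, 8.80, 9.03 and 8.89, against 9.38, 9.09, 10.28 and 9.29 in wild-type skin. These groups did not overlap either, wild-type 28 was the highest array as it was for Gjb2, and the difference was -0.70 ± 0.24 (adjusted p = 0.138). It was -0.44 without wild-type 28, -0.07 with the Gapdh covariate and -0.12 with the Actb covariate.

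Gjb5, a connexin of stratified epithelia, read 8.41, 8.77, 8.87 and 8.28 in GR-null skin, against 8.60, 8.80, 9.17 and 9.07 in wild-type skin, with overlap and a difference of -0.33 (95% interval -0.70 to 0.05), which turned to 0.26 with the Gapdh covariate, 0.05 with Actb and 0.06 with muscle. Gja1 (connexin 43), the connexin made across the epidermis and dermis, read 13.48, 13.47, 13.50 and 13.53, against 13.41, 13.43, 13.70 and 13.32 in wild-type skin. The GR-null values fell inside the wild-type range, and the 95% interval of the difference was -0.17 to 0.23. The median of the 4 connexins was -0.51, and the mean level of the 4 spanned 10.01 to 10.37 in GR-null and 10.49 to 11.23 in wild-type arrays. Of 13 further connexins and pannexins outside the list, 9 had a negative difference, and their median was -0.06. At an unadjusted p under 0.05 in limma, 1 of the 13 was lower (7.69%, against 11.1% of all genes) and 0 were higher (against 10.5%).

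Gjb2 and Gjb6 are direct neighbours on chromosome 14, and the gene on the other side of Gjb2 is a further connexin gene, Gja3, known from lens and not a member of the list. Gja3 read 6.92, 6.82, 6.65 and 6.70 in GR-null arrays, against 7.07, 7.46, 7.40 and 7.53 in wild-type arrays. It fell by 0.59 ± 0.11 log2 (SE, n = 4 per group, limma adjusted p = 0.0344), so all 3 genes of this row were lower in every GR-null array. Their promoters are shown for the 2 member genes, both on the minus strand, Gjb2 at chr14:57104653-57104952 and Gjb6 at chr14:57133562-57133861, printed 5′ to 3′ on the gene's strand with GC boxes in capitals.
Gjb2: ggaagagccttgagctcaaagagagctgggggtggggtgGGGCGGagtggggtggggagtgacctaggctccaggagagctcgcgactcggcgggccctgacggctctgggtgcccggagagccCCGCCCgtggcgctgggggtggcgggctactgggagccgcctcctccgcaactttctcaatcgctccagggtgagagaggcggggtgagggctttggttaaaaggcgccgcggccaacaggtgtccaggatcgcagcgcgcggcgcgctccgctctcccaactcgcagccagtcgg
Gjb6: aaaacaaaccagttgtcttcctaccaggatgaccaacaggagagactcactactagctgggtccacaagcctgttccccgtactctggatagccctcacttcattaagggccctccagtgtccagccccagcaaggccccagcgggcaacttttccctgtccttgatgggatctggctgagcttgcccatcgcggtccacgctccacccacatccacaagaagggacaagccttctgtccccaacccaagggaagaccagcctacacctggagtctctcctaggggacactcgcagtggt
The Gjb2 window holds 2 GC boxes and has 70% G and C, and the Gjb6 window holds none of the motifs searched and has 57.3%.

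In the adherens junction, E-cadherin (Cdh1), the main cadherin of epithelia, had a difference of 0.12 (95% interval -0.12 to 0.35). Ctnna1 (alpha-catenin), which connects cadherins to actin, read 12.33, 12.47, 12.40 and 12.34 in GR-null arrays, against 12.19, 12.21, 12.18 and 12.29 in wild-type arrays. The GR-null values lay above the wild-type values without overlap, but by only 0.17 ± 0.07 (SE, n = 4 per group, limma adjusted p = 0.201), and its other 3 probe sets gave 0.05, -0.17 and -0.05. P-cadherin (Cdh3), a cadherin of hair placodes and basal cells, read 6.84, 7.05, 6.94 and 7.10, against 6.70, 7.39, 6.89 and 6.96 in wild-type skin, with no direction visible.

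Probe sets of one gene did not always give the same difference. Of the 17 members with several probe sets, 8 had a dimmer one that was higher at an unadjusted p under 0.05 by more than the brightest one. Of the 35 dimmer probe sets of these members 10 were higher at that p and 0 lower in limma, 2 of them past an adjusted p of 0.05, where 3.85% of all probe sets passed. Over the whole array, 17.4% of the 16752 probe sets that were not the brightest of their gene were higher and 8.97% lower at an unadjusted p under 0.05. The 2 past the threshold were both of Dsg2, at 0.74 (limma adjusted p = 0.029) and 0.51 (adjusted p = 0.034).

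The dimmest probe set of Dsp read 11.59, 9.73, 12.12 and 12.01 in GR-null arrays, against 10.33, 9.77, 9.39 and 8.19 in wild-type arrays, a difference of 1.94 where the brightest gave 0.00. A dimmer Gja1 probe set read 8.91, 8.02, 10.08 and 10.58, against 7.99, 8.94, 7.39 and 6.39 in wild-type arrays, a difference of 1.72 where the brightest gave 0.03. For Cldn1 the second probe set read 7.72, 6.58, 8.49 and 9.28, against 6.29, 7.03, 6.92 and 6.08 in wild-type arrays. In these 3 the highest arrays were among GR-null 5, 25 and 26, and GR-null 17 was within the wild-type range, as was GR-null 5 for Gja1. GR-null 5, 25 and 26 also had the highest 5′ minus 3′ differences of the controls. The place of each probe set along its transcript was not used here, and the part of the 5′ to 3′ difference in these values was not tested for single probe sets. With the Gapdh difference as a covariate limma called 0 of all genes, with 6.90% at an unadjusted p under 0.05, against 21.6% without it.

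**Figure D4:**
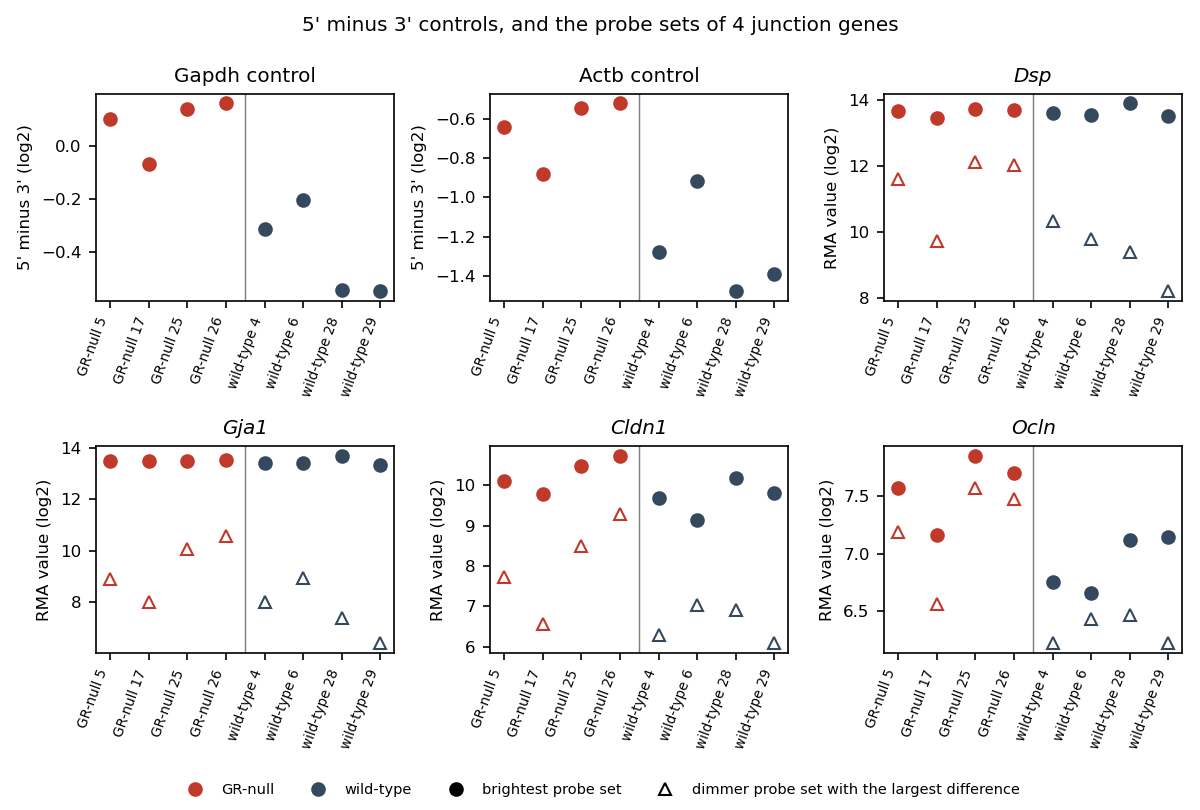
Upper left and middle panels, 5′ minus 3′ difference of the Gapdh and Actb control probe sets (log2) on each array; other panels, log2 values of the brightest probe set (filled circles) and of the dimmer probe set with the largest difference (open triangles) for Dsp, Gja1, Cldn1 and Ocln, GR-null in red and wild-type in dark blue. Both controls are higher in GR-null arrays without overlap, and the triangles of Dsp and Gja1 spread over a wide range while their circles stay near 13.5.

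The rest of the junction gene set was read from a list of 70 further genes, of which 56 had a probe set. Limma called 1 higher and 3 lower, where 1.40% and 1.56% of all genes were called, and 52 were not past the threshold. At an unadjusted p under 0.05, 4 were higher and 6 lower (7.14% and 10.7%, against 10.5% and 11.1% of all genes). The median difference of the 56 was 0.0098. Corneodesmosin (Cdsn), the protein that glues the outermost cells at modified desmosomes, fell by 1.50 log2 (SE 0.21, 2.83-fold, limma adjusted p = 0.0128, n = 4 per group). It read 10.50, 9.82, 10.78 and 10.57 in GR-null arrays, against 12.06, 11.74, 12.18 and 11.68 in wild-type arrays, so the lowest wild-type array was above every GR-null array by a clear margin.

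N-cadherin (Cdh2), the cadherin of nerve, muscle and mesenchyme, read 7.18, 7.60, 7.02 and 7.11 in GR-null skin, against 8.13, 7.79, 7.98 and 8.44 in wild-type skin, and fell by 0.86 ± 0.16 (adjusted p = 0.0337). This fall stood beside the lower muscle marker levels given above, and a link between them was not tested. Prkci, the atypical protein kinase C that helps to place tight junctions, rose by 0.39 ± 0.09 (limma adjusted p = 0.0489), with 10.95, 10.97, 11.22 and 11.14 in GR-null arrays, against 10.64, 10.59, 10.69 and 10.79 in wild-type arrays. Its partner Pard3 had a difference of 0.84 (adjusted p = 0.0634), with GR-null 17 at 9.62 below wild-type 28 at 9.64. Ildr2, from the same 16 further tight junction and polarity genes, had a difference of -1.22 without overlap (limma adjusted p = 0.0628). Among those 16 genes, 4 were higher and 2 lower at an unadjusted p under 0.05. That is 25% and 12.5%, against 10.5% and 11.1% of all genes. Of 10 further claudins limma called 0, with 0 at an unadjusted p under 0.05, and their differences lay between -0.36 and 0.20.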

How the data were processed

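Expression was measured on 8 single-colour Affymetrix arrays, 4 GR-null and 4 wild-type. The deposited values are log2 expression per probe set, made by the authors with RMA, per the submitters' processing notes; no RMA version or filter is recorded there. RMA subtracts background, equalises distributions across arrays and compresses very dim and very bright signals. Neither detection calls nor scan dates entered the fits, and the number of arrays limits the precision.

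Of 45101 probe sets, 64 controls were left out. Differences were tested across all probe sets with limma 3.58.1 in R 4.3.3, with genotype as the single term, read at 1 probe set per gene and adjusted by Benjamini-Hochberg over 18193 genes. Names follow RefSeq through gene identifiers for 18032 of these. On simulated arrays the fit recovered 42.5% of genes shifted by 0.5 log2 and 86.9% of those shifted by 1, with 5.51% false calls. Each simulated run shifted 200 genes, whereas 21.6% of all genes had an unadjusted p under 0.05 (limma) in the data. The simulated percentages therefore need not hold for this comparison.

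The members and lists were chosen with earlier results of these data known. Every member is accounted for; values on every array are given for members at an unadjusted p under 0.05 and, in each junction type, for the largest difference, the brightest and the dimmest, plus a few chosen after their values were seen (Dsg1a, Dsg2 and the dimmer probe sets). Further genes are named where past the threshold, and Pard3 and Ildr2 were chosen after their values were seen. Alternatives covered normalization, a filter on dim probe sets, the variance prior, array weights, each array left out, probe set choice and covariates; the 5′ minus 3′ covariates and the removal of both arrays with high Xist were added after seeing the data.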

Additional observations from a re-analysis of the deposited data

Results flagged for a closer look

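The value of Marveld3 in GR-null 25, 7.52 log2, stood apart from the other GR-null arrays at 6.79 to 6.86. Pkp2 in GR-null 17, 5.51 at its brightest probe set, stood apart from the others at 4.41 to 4.54. These were 2 of 46 groups of 4 examined, and chance alone marks about 1 in 20 such groups. The control probe sets were not tested as genes and entered the fits only through the 5′ minus 3′ covariates. They carried a signal of their own. For Gapdh the 5′ minus 3′ difference averaged 0.0823 ± 0.105 log2 in GR-null and -0.40 ± 0.17 in wild-type arrays (SD, n = 4 each). For Actb it averaged -0.65 ± 0.16 and -1.26 ± 0.25. The part of this signal in the junction differences cannot be told apart from genotype in this design, because the groups do not overlap in it.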

How the results depend on the processing

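Counts below are of members past an adjusted p of 0.05, then of all genes, then of the other junction genes, against 1, 539 and 4 as reported. Array quality weights gave 8, 1944 and 9, averaging each gene's probe sets 4, 884 and 7, and removal of GR-null 17 and wild-type 6 together 9, 1715 and 8. The skeletal muscle covariate gave 0, 3 and 0, the basal keratinocyte covariate 0, 85 and 0, and the Gapdh or the Actb 5′ minus 3′ covariate 0, 0 and 0. Probe sets above the median level gave 5 members and 829 genes. The member count was 2 after further quantile normalization, 3 with Eif2s3y as a covariate, 2 with label numbers below 10 as a term, 3 when adjusted over all probe sets, and 0 without _x_at and _s_at probe sets, where Cldn10 is not read. Leaving out 1 array in turn gave 0 to 11 members, 79 to 1640 genes (lowest without GR-null 25, highest without GR-null 17) and 1 to 9 other junction genes.

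At an unadjusted p under 0.05, the 10 higher members became 4 with muscle, 5 with basal keratinocyte, 3 with Gapdh and 2 with Actb covariates, and 7 to 12 with 1 array left out. The 3 lower ones became 0, 5, 0 and 0 with the same covariates, 5 without both arrays, and 2 to 5 with 1 array left out. Over all genes, 1581 (muscle), 1255 (Gapdh) and 1660 (Actb) passed that p, against 3936. The cause of these changes was not tested. The median member difference stayed positive in the alternatives run, 0.06 to 0.24, and Cldn10 stayed higher. No member that changed sign was called as reported: Cldn23 (to -0.0018 with muscle), Ctnna1 (to -0.0027 with probe sets averaged), Pkp2 (up to 0.61), Gjb5 (up to 0.26), Dsc1 (up to 0.52), Dsc2 (down to -0.19), Tjp3 (up to 0.07), and Dsp, Cldn6, Cdh3 and Gja1, whose reported differences were near 0, each did so in at least 1 alternative. No paired analysis was possible because the groups share no label numbers. The groups do not overlap in the 5′ minus 3′ and muscle measures, so those fits leave little to estimate genotype from. With 4 arrays a group, the simulated fit recovered 42.5% of genes shifted by 0.5 log2, so small differences may go uncalled.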
